A study of Mus musculus with 4 samples.

Results

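The genes described here encode the machinery that writes, erases, reads and moves chromatin marks, together with the histones that chromatin is made of. They were chosen by gene symbol alone from the authors' deposited table: 115 of the 7252 genes that the authors tested for a difference between CD5 high and CD5 low effector T cells. By class they were 22 histone methyltransferases and associated genes, 13 histone demethylases, 8 histone acetyltransferases, 12 deacetylases and sirtuins, 4 enzymes of DNA methylation, 10 Smarc genes, 8 Chd genes, 8 Arid genes, 7 bromodomain genes, 16 replication-dependent histones and 7 replacement histones.

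The series holds 4 RNA sequencing libraries, 2 from CD5 high and 2 from CD5 low effector T cells. Both groups came from mice of strain NOD with the genotype NOD.Foxp3-GFP, aged 6 to 9 weeks, so both carried the reporter for Foxp3, the transcription factor that defines regulatory T cells. Pancreatic islets and spleen are given as the tissue, and the sample titles begin with Isl. NOD mice develop autoimmune diabetes, and CD5 is a surface receptor of T cells that restrains T cell receptor signalling. The number of animals behind a library is not known from the sources used here.

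Each gene has 1 combined value per group in FPKM, a level scaled to transcript length and library size. No SD or n can therefore be given, and the sequencing depth behind the values is unknown. The p-values and q-values (p-values adjusted over all tested genes) are those of the authors. A gene is said to have risen or fallen where the q-value was under 0.05. Fold changes are CD5 high over CD5 low, without a pseudocount.

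Chromatin is DNA wound around histone proteins. Enzymes add or remove methyl and acetyl groups on histone tails or methyl groups on DNA, reader proteins bind these marks, and remodellers use ATP to slide or evict nucleosomes. In T cells such enzymes set which cytokine and effector genes can be transcribed. Replication-dependent histone genes lie in clusters, have no introns and are transcribed mainly in S phase, while replacement histones are made throughout the cell cycle.

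The chromatin genes differed little between the groups. Of the 115 genes, 1 rose in CD5 high cells and 0 fell, a share of 0.870% against 0.758% of all tested genes called in either direction (0.538% higher and 0.221% lower). The gene that rose was Hist1h1b, which encodes a linker histone. A further 5 genes had an unadjusted p-value under 0.05 in the authors' deposited table. These were the polycomb methyltransferase gene Ezh2, Setd3 and Arid3b with a higher value in CD5 high, and the deacetylase gene Sirt1 and the acetyltransferase gene Kat2b with a lower one. With Hist1h1b they made 6 of 115 genes (5.22%, against 10.3% of all tested genes), namely 4 higher genes (3.48%, against 5.58% of all tested genes) and 2 lower genes (1.74%, against 4.70%).

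**Figure D1:**
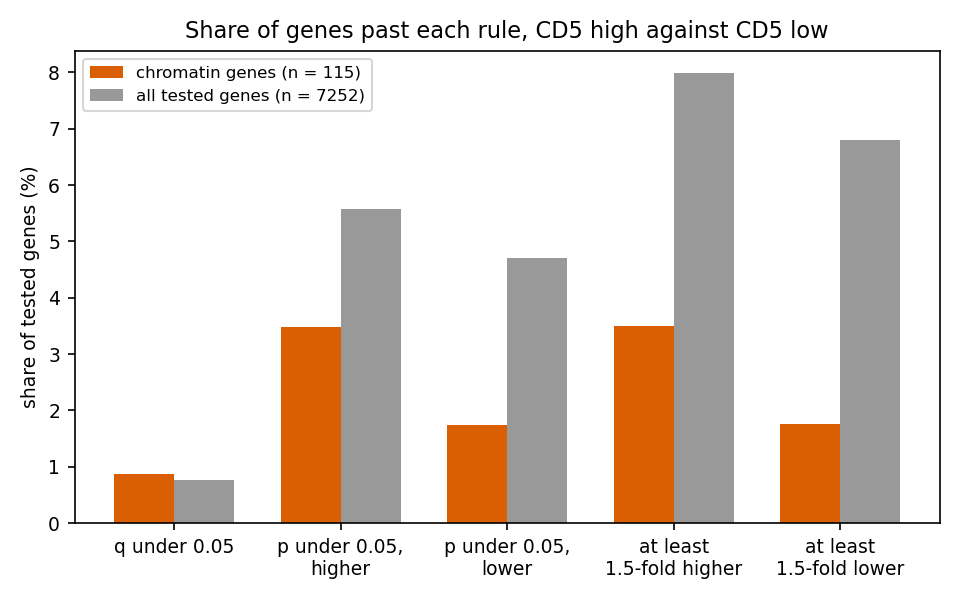
Share of genes, in percent, past each rule in CD5 high against CD5 low, for the chromatin genes (orange, left bar) and all tested genes (grey, right bar); the fold bars are over the genes with a finite ratio, 114 and 7237. The chromatin genes have the lower bar for the unadjusted p-value and fold rules, and 0.870% against 0.758% for the q-value rule.

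Sizes of change were small as well. The median log2 fold change of the 114 chromatin genes with a finite ratio was -0.02, against -0.01 for all tested genes, with 53 of 115 higher and 62 lower in CD5 high. The median absolute log2 change was 0.16, against 0.24 for all tested genes, and 88.6% of the chromatin genes lay within 0.5 of no change, against 79.9% of all tested genes. A difference of at least 1.5-fold was seen upward in 4 genes (3.51%, against 7.99% of all tested genes) and downward in 2 (1.75%, against 6.80%). Median expression was 23.9 FPKM in CD5 high and 22.4 FPKM in CD5 low for the chromatin genes, near the 20.5 FPKM in CD5 high and 20.2 FPKM in CD5 low of all tested genes. Among genes with a mean of at least 20 FPKM, 2 of 67 chromatin genes (2.99%) and 8.37% of 3690 tested genes reached 1.5-fold. The difference between the chromatin genes and the rest was not tested.

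The table reaches only genes above a floor: no tested gene was below 6.82 FPKM in both groups. The chromatin gene nearest that floor was Sirt6, with 4.78 FPKM in CD5 high and 7.05 FPKM in CD5 low. Of the 115 genes, 9 had their lower value under the floor and were in the table through the other group only. In 6 of these CD5 high had the higher value (Hist1h1b, Hist2h2ab, Arid3b, Dnmt3a, Smarcad1 and Setdb1), and in 3 the lower one (Smarcd1, Kdm1b and Sirt6). Hist1h2ap and the row that joins Hist2h2aa1 and Hist2h2aa2 were listed at 0 in both groups and were not tested by the authors. The row that joins Hist1h4m and Hist1h4n, which names more than 1 gene and is not counted among the 115, had 55.5 FPKM in CD5 high and 79.8 FPKM in CD5 low.

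**Figure D2:**
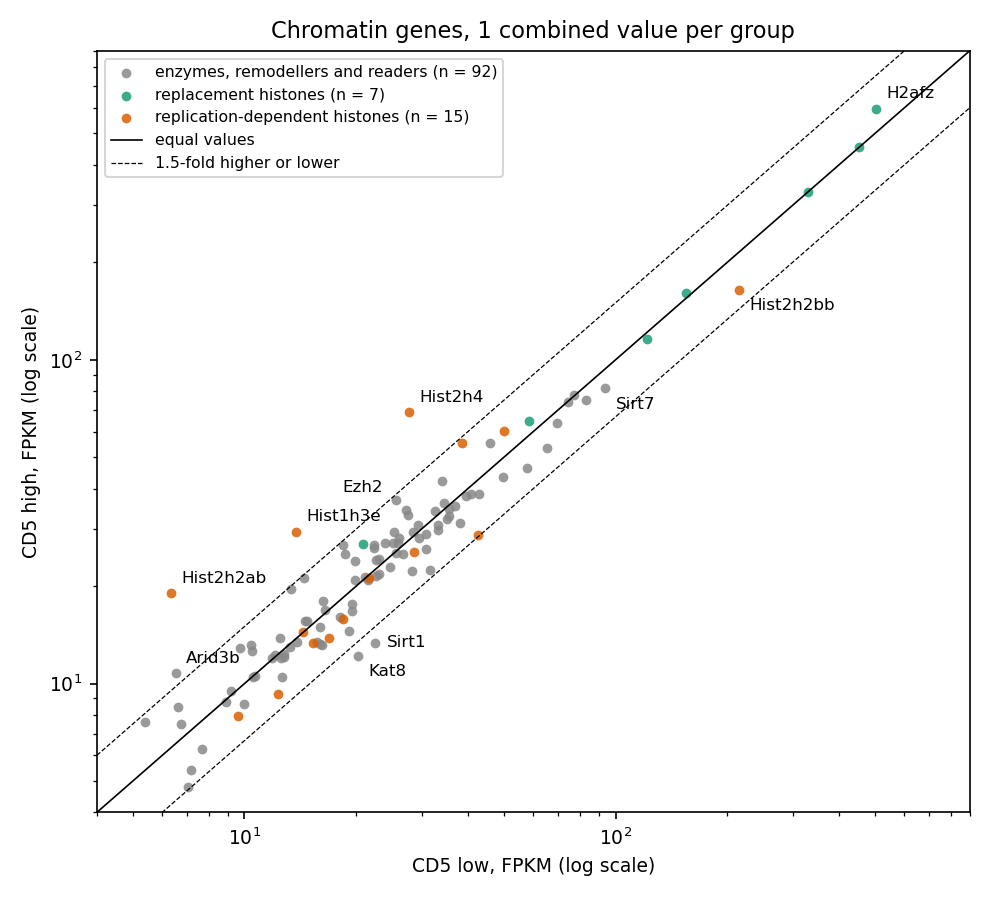
FPKM of each chromatin gene in CD5 high (vertical axis) and CD5 low (horizontal axis), both on log scales; grey points are enzymes, remodellers and readers, green points replacement histones and orange points replication-dependent histones. Points lie along the line of equal values between about the table's floor and H2afz (596 FPKM in CD5 high and 502 FPKM in CD5 low); Hist2h2ab, Hist2h4 and Hist1h3e lie farthest above it, and Hist1h1b, listed at 0 in CD5 low, cannot be drawn on a log axis.

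Hist1h1b encodes a linker histone that binds the DNA between nucleosomes. It is a gene without introns, with a deposited locus at chromosome 13, 21779883 to 21780554 (mm10, minus strand), and RefSeq now names it H1f5. It was 13.99 FPKM in CD5 high cells and was listed at 0 in CD5 low cells, so no fold is given (q = 0.0110 in the authors' deposited table). Its p-value, 5e-05, was the smallest in the authors' deposited table and was shared by 33 genes. The deposited locus is 672 bases long, and with no depth known, no limit can be put on the value listed at 0.

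Hist1h3i, a histone H3 gene, is the nearest chromatin gene in the table, and its deposited locus lies 2360 bases away on the same strand. Its value was 14.4 FPKM in both groups (14.44 in CD5 high and 14.39 in CD5 low, q = 0.992 in the authors' deposited table). A CD5 high value of like size therefore stood beside a CD5 low value of 0 in one gene and of 14.39 FPKM in its neighbour.

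Promoters are shown for 4 genes: Hist1h1b because it alone rose, Hist1h3i as its neighbour with equal values, Hist2h2bb because it had the highest level among the replication-dependent histones, and Ezh2, added after its value was seen, as the histone methyltransferase gene with the smallest p-value. Each run covers 250 bases before to 50 bases after the start site on the gene's own strand, 5′ to 3′, from RefSeq on GRCm38.p6. Capitals mark matches, on either strand, to the CCAAT box, to the TATA box form TATAAA, to the octamer ATTTGCAT, or to the forms TTTGGCGC and TTTCCCGC of the E2F site.
Hist1h1b (chr13:21780576-21780875, minus strand): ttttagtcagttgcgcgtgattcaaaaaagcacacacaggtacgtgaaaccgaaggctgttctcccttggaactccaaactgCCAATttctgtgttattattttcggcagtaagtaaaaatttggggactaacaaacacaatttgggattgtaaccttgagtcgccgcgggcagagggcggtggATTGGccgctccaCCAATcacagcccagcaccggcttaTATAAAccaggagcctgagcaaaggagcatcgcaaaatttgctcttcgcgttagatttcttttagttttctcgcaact
Hist1h3i (chr13:21783348-21783647, minus strand): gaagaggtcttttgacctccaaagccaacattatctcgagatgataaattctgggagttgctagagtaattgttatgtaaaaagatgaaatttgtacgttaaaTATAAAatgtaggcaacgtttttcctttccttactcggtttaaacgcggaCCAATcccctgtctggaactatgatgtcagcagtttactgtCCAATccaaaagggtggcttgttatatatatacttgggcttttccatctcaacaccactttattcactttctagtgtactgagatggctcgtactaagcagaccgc
Hist2h2bb (chr3:96269450-96269749, plus strand): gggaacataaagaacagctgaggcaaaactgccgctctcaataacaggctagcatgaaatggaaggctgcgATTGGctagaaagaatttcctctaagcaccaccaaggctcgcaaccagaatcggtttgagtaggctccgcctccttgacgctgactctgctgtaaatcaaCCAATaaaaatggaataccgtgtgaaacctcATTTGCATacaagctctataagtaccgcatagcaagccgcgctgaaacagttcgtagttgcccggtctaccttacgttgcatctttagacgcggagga
Ezh2 (chr6:47594981-47595280, minus strand): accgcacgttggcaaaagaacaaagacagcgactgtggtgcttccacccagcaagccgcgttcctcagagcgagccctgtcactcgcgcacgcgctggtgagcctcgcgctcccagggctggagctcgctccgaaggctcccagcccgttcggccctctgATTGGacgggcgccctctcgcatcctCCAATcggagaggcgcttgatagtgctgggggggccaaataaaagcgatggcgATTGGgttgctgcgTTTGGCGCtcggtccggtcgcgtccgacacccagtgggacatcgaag

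Matched by gene ID, 94 of the 115 genes had a promoter in the RefSeq table, 15 of the 16 replication-dependent histones among them. Among those 15 promoters, 12 held CCAAT (80.0%, against 37.4% of all 32851 mouse promoters of this length), 8 held TATAAA (53.3%, against 13.6%) and 3 held ATTTGCAT (against 1.74%). The E2F forms were in 0 of the 15, against 0.514% and 1.07% of all promoters. The Hist1h1b promoter had 3 CCAAT matches and a TATAAA beginning 28 bases upstream of the start site. That of Hist1h3i had 2 CCAAT matches and a TATAAA 147 bases upstream. Only the form TATAAA was searched, so the other TATA-like run nearer the Hist1h3i start site is unmarked. The promoter of Hist2h2bb had 2 CCAAT matches and ATTTGCAT, the octamer known from histone H2B genes, 48 bases upstream. In the Ezh2 promoter there were 3 CCAAT matches and TTTGGCGC just inside the transcribed part. No base of these promoters belonged to more than 1 match. A match describes letters in these windows and is no evidence of binding.

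The other replication-dependent histones lay in both directions, and none passed the test. Of the 16 genes, 7 had a higher and 9 a lower value in CD5 high. Of the 15 with a finite ratio, 3 were at least 1.5-fold higher (20%, against 7.99% of all tested genes). None of the 15 was at least 1.5-fold lower, against 6.80% of all tested genes. Hist2h2ab, which encodes a histone H2A, was 18.98 FPKM in CD5 high and 6.34 FPKM in CD5 low (2.99-fold, q = 0.701 in the authors' deposited table). This gene was under the floor in CD5 low and was tested through CD5 high only, so the upward count is tilted by the floor. Hist2h4, a histone H4 gene, was 68.7 FPKM in CD5 high and 27.7 FPKM in CD5 low (2.48-fold, q = 0.540 in the authors' deposited table). Hist1h3e, a histone H3 gene, was 29.4 FPKM in CD5 high and 13.8 FPKM in CD5 low (2.14-fold, q = 0.687 in the authors' deposited table). These 3 genes had a fold larger than any enzyme gene here and q-values between 0.540 and 0.701.

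Genes of the same histone protein had values in both directions. All histone H4 genes encode nearly the same protein, and of the 6 tested, 2 had a higher and 4 a lower value in CD5 high. Besides Hist2h4, Hist1h4c was 55.2 FPKM in CD5 high and 38.6 FPKM in CD5 low. Hist1h4d was 28.8 FPKM in CD5 high and 42.5 FPKM in CD5 low, the lowest ratio of the class (log2 fold change -0.56). Hist1h4h was 13.8 FPKM in CD5 high and 16.9 FPKM in CD5 low, Hist1h4i 15.8 FPKM in CD5 high and 18.5 FPKM in CD5 low, and Hist4h4 7.97 FPKM in CD5 high and 9.62 FPKM in CD5 low. The q-values of these 6 genes were all at least 0.540 in the authors' deposited table.

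In the Hist2 cluster, 4 tested genes lie within 50277 bases on chromosome 3. Hist2h2ac, which encodes a histone H2A and lies beside Hist2h2ab on the other strand, was 60.1 FPKM in CD5 high and 49.97 FPKM in CD5 low. Hist2h2bb, which encodes a histone H2B, had the highest level of the class, with 165 FPKM in CD5 high and 215 FPKM in CD5 low (q = 0.662 in the authors' deposited table). The cluster thus held the strongest ratio of the class, in Hist2h2ab, beside a lower CD5 high value in its most abundant gene. As stated above, Hist2h2ab was tested through CD5 high only.

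The remaining linker histone genes had close values. Hist1h1c was 25.5 FPKM in CD5 high and 28.7 FPKM in CD5 low, and Hist1h1e was 21.2 FPKM in CD5 high and 21.6 FPKM in CD5 low. All 3 genes outside the large clusters were lower in CD5 high. Hist3h2a was 9.26 FPKM in CD5 high and 12.3 FPKM in CD5 low, Hist3h2ba 13.4 FPKM in CD5 high and 15.3 FPKM in CD5 low, and Hist4h4 as given above. Summed over the 16 genes, the level was 561 FPKM in CD5 high and 531 FPKM in CD5 low, a ratio of 1.06.

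**Figure D3:**
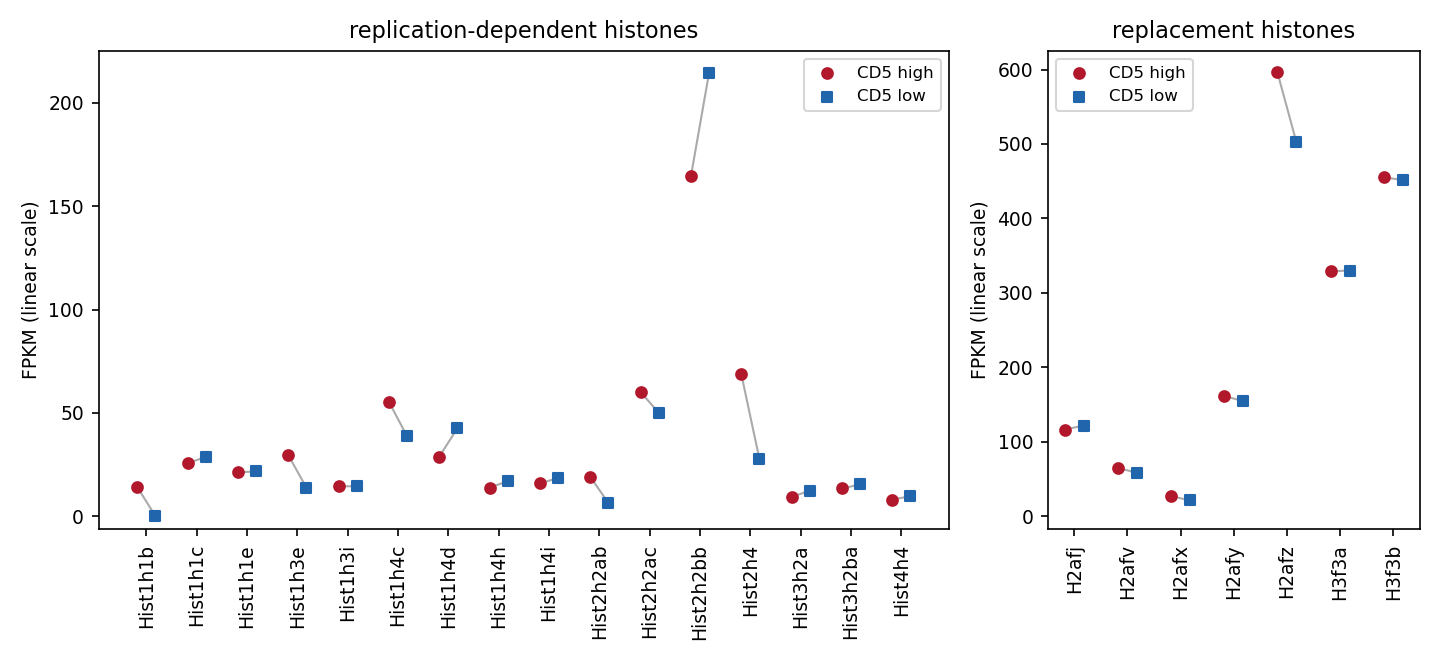
FPKM (linear scale) of each replication-dependent histone (left panel) and replacement histone (right panel) in CD5 high (red circles, left point of a pair) and CD5 low (blue squares, right point). Hist1h1b sits at 0 in CD5 low, Hist2h4, Hist1h3e and Hist2h2ab have the higher CD5 high points named in the text, and Hist2h2bb is lower in CD5 high at 165 against 215 FPKM; among the replacement histones H2afz is the highest, at 596 against 502 FPKM, and the other 6 pairs lie at nearly equal heights.

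Histone values carry limits of their own. The genes are short, 12 of the 16 with a locus under 1 kb, and have near-identical copies, so the counting may have split reads between them. Their messages mostly end in a stem-loop without a poly(A) tail, and the priming of reverse transcription is not known from the sources used here. The locus deposited for Hist1h1e spans 38889 bases and holds other histone genes.

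Of the 6 chromatin genes with a mean of at least 100 FPKM, 5 were replacement histones, and no gene of this class passed the test. H2afz, which encodes the variant H2A.Z found near transcription start sites, was 596 FPKM in CD5 high and 502 FPKM in CD5 low (q = 0.679 in the authors' deposited table). H3f3b and H3f3a both encode the histone H3.3. H3f3b was 455 FPKM in CD5 high and 451 FPKM in CD5 low, and H3f3a was 329 FPKM in CD5 high and 329.9 FPKM in CD5 low. H2afy, the gene of the macro-domain variant macroH2A, was 161 FPKM in CD5 high and 155 FPKM in CD5 low. The greatest ratio of the class belonged to H2afx, the variant phosphorylated at DNA breaks, with 26.96 FPKM in CD5 high and 20.9 FPKM in CD5 low (log2 fold change 0.37, q = 0.766 in the authors' deposited table). H2afv, which encodes a second form of H2A.Z, was 64.5 FPKM in CD5 high and 58.3 FPKM in CD5 low, and H2afj 116 FPKM in CD5 high and 122 FPKM in CD5 low. Their sum was 1749 FPKM in CD5 high and 1639 FPKM in CD5 low, against 561 FPKM in CD5 high and 531 FPKM in CD5 low for the replication-dependent genes.

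Some genes of S phase and division rose beside these histone values. Of 30 cell cycle genes listed, 16 were tested, and 14 of these had a higher value in CD5 high. Of the 16, 3 rose (18.8%, against 0.538% of all tested genes): Mcm6, Mki67 and Top2a. Mki67, Top2a, Rrm2, Rrm1, Ccne1, Birc5, Gmnn and Mcm2 were under the floor of 6.82 FPKM in CD5 low. They were tested through their CD5 high value only, so these counts are tilted toward CD5 high by the floor. The summed level of the 16 genes was 451 FPKM in CD5 high and 313 FPKM in CD5 low. Mki67 was 10.5 FPKM in CD5 high and 3.22 FPKM in CD5 low (q = 0.0110 in the authors' deposited table). Pcna, the replication clamp, was 71.8 FPKM in CD5 high and 73.8 FPKM in CD5 low. In bulk samples, fewer cells of a type and less RNA per cell cannot be told apart, and the part of cycling cells in the value of Hist1h1b was not tested.

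Among the writers of histone methylation, 22 genes were tested, 10 higher and 12 lower in CD5 high, with none past the test and a median log2 fold change of -0.04. The polycomb repressive complex methylates histone H3 to keep genes silent. It is built around Eed, Suz12 and a catalytic subunit encoded by Ezh2 or Ezh1. All 4 genes had a higher value in CD5 high, and none passed the test. Further subunit genes of the complex lay in both directions. In log2 fold change, Rbbp4 (0.08), Jarid2 (0.32) and Aebp2 (0.08) were higher in CD5 high. Rbbp7 (-0.02), Mtf2 (-0.12) and Phf1 (-0.23) were lower. Ezh2 was 36.9 FPKM in CD5 high and 25.7 FPKM in CD5 low (1.44-fold, p = 0.0362 and q = 0.440 in the authors' deposited table). Suz12 was 34.4 FPKM in CD5 high and 27.3 FPKM in CD5 low (log2 fold change 0.33, q = 0.627 in the authors' deposited table). Eed was 33.2 FPKM in CD5 high and 27.6 FPKM in CD5 low (log2 fold change 0.26, q = 0.779 in the authors' deposited table). Ezh1 was 17.95 FPKM in CD5 high and 16.3 FPKM in CD5 low. The grouping of these 4 genes was chosen after their values were seen. Of the cell cycle genes above the floor in both groups, Mcm6, Mcm3, Stmn1, Mcm7, Tyms and Tubb5 had higher values in CD5 high. Pcna and Mcm4 had lower ones. The part of cycling cells in the values of the 4 polycomb genes was not tested.

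The Mll genes, which encode large methyltransferases of promoters and enhancers and their relative Mll5, had slightly lower values in CD5 high in all 4 tested. Mll5, the most abundant gene of the class, was 63.8 FPKM in CD5 high and 69.6 FPKM in CD5 low. Mll1 was 34.7 FPKM in CD5 high and 35.5 FPKM in CD5 low, Mll2 (now Kmt2d) 32.1 FPKM in CD5 high and 35.1 FPKM in CD5 low, and Mll3 17.7 FPKM in CD5 high and 19.5 FPKM in CD5 low. Their log2 fold changes were between -0.14 and -0.03, and their q-values at least 0.848 in the authors' deposited table. The name rule also takes in 3 Mllt genes, which encode partners of MLL fusion proteins rather than methyltransferases. Mllt6 was 29.3 FPKM in CD5 high and 25.3 FPKM in CD5 low, Mllt3 28.2 FPKM in CD5 high and 26.03 FPKM in CD5 low, and Mllt10 32.95 FPKM in CD5 high and 35.6 FPKM in CD5 low.

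The 11 Setd genes divided into 4 higher and 7 lower. Setd3, known in mammals as an actin histidine methyltransferase, was 26.8 FPKM in CD5 high and 18.4 FPKM in CD5 low (1.45-fold, p = 0.0458 and q = 0.471 in the authors' deposited table). Setd4 had the highest log2 fold change of the class, 0.55, with 21.1 FPKM in CD5 high and 14.5 FPKM in CD5 low (q = 0.616 in the authors' deposited table). Setdb1, which silences retroelements through histone H3, was 7.61 FPKM in CD5 high and 5.39 FPKM in CD5 low, and Setd8 (now Kmt5a), which methylates histone H4, was 23.9 FPKM in CD5 high and 19.8 FPKM in CD5 low. The 7 lower genes were Setd1a, Setd1b, Setd2, Setd5, Setd6, Setd7 and Setdb2, with log2 fold changes between -0.23 and -0.05. Setd2, the methyltransferase of transcribed gene bodies, was 25.1 FPKM in CD5 high and 26.8 FPKM in CD5 low. Setd6 was lowest in ratio, with 13.4 FPKM in CD5 high and 15.7 FPKM in CD5 low.

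Histone demethylases remove the marks those enzymes add, and 5 of 13 were higher and 8 lower in CD5 high, with a median log2 fold change of -0.09 and q-values of at least 0.612 in the authors' deposited table. Kdm6b, an inducible demethylase that removes the polycomb mark, had the highest level of the class, with 42.1 FPKM in CD5 high and 34.1 FPKM in CD5 low (log2 fold change 0.31). Its relative Kdm6a, an X-linked gene, was 16.1 FPKM in CD5 high and 18.1 FPKM in CD5 low. Of the genes acting on the promoter mark of histone H3, Kdm5b was 12.9 FPKM in CD5 high and 9.74 FPKM in CD5 low, the highest ratio of the class (0.40 in log2), while Kdm5a was 28.95 FPKM in CD5 high and 30.8 FPKM in CD5 low and Kdm5c 12.01 FPKM in CD5 high and 11.9 FPKM in CD5 low. The flavin-dependent enzymes Kdm1a, at 16.7 FPKM in CD5 high and 19.5 FPKM in CD5 low, and Kdm1b, at 5.41 FPKM in CD5 high and 7.17 FPKM in CD5 low, had lower values in CD5 high. Kdm3b was 34.1 FPKM in CD5 high and 32.7 FPKM in CD5 low and Kdm3a 13.3 FPKM in CD5 high and 16.02 FPKM in CD5 low. Kdm2a was 21.7 FPKM in CD5 high and 23.1 FPKM in CD5 low, Kdm2b 12.6 FPKM in CD5 high and 10.5 FPKM in CD5 low, Kdm4a 12.3 FPKM in CD5 high and 12.8 FPKM in CD5 low, and Kdm4c 10.5 FPKM in CD5 high and 12.6 FPKM in CD5 low.

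Histone acetyltransferases, which open chromatin by neutralising lysines, included 3 higher and 5 lower genes of 8 (median log2 fold change -0.09). Kat2b, the coactivator PCAF, was 22.5 FPKM in CD5 high and 31.5 FPKM in CD5 low (1.40-fold lower, p = 0.0325 and q = 0.428 in the authors' deposited table). Its paralog Kat2a was 13.8 FPKM in CD5 high and 12.5 FPKM in CD5 low. Kat8, which acetylates histone H4, was 12.2 FPKM in CD5 high and 20.3 FPKM in CD5 low (1.66-fold lower, q = 0.571 in the authors' deposited table). The paired coactivators Crebbp and Ep300 had close values. Crebbp was 38.6 FPKM in CD5 high and 40.9 FPKM in CD5 low, and Ep300 was 16.8 FPKM in CD5 high and 16.5 FPKM in CD5 low. Kat6a was 29.8 FPKM in CD5 high and 33.3 FPKM in CD5 low, Kat5 22.9 FPKM in CD5 high and 24.6 FPKM in CD5 low, and Kat7, with the highest ratio of the class (0.34 in log2), 13.1 FPKM in CD5 high and 10.4 FPKM in CD5 low.

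Deacetylases reverse acetylation. The 7 zinc-dependent Hdac genes had a median log2 fold change of 0.07, and the 5 NAD-dependent sirtuins one of -0.20. Sirt1, a nuclear sirtuin, was 13.4 FPKM in CD5 high and 22.4 FPKM in CD5 low (1.68-fold lower). Its p-value of 0.00475 in the authors' deposited table was the smallest outside the histones, and its q-value of 0.188 did not pass the test. Sirt7, a nucleolar sirtuin and the most abundant of the class, was 81.8 FPKM in CD5 high and 93.7 FPKM in CD5 low. The other sirtuins were Sirt2, at 25.1 FPKM in CD5 high and 18.7 FPKM in CD5 low, the mitochondrial Sirt3, at 9.48 FPKM in CD5 high and 9.22 FPKM in CD5 low, and Sirt6, at the values given above.

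Of the class I enzymes, which sit in corepressor complexes, Hdac1 was 38.5 FPKM in CD5 high and 42.7 FPKM in CD5 low, Hdac2 24.01 FPKM in CD5 high and 22.6 FPKM in CD5 low, and Hdac3 20.9 FPKM in CD5 high and 21.5 FPKM in CD5 low. The signal-regulated class II enzymes were as close. Hdac7, the form prominent in thymocytes, was 27.3 FPKM in CD5 high and 25.2 FPKM in CD5 low, Hdac4 20.9 FPKM in CD5 high and 19.9 FPKM in CD5 low, and Hdac5 8.77 FPKM in CD5 high and 8.92 FPKM in CD5 low. Hdac10, a polyamine deacetylase, had the highest log2 fold change of the class, 0.55, with 19.6 FPKM in CD5 high and 13.3 FPKM in CD5 low (q = 0.569 in the authors' deposited table).

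For DNA methylation 4 genes were tested, and their q-values were at least 0.694 in the authors' deposited table. Dnmt1, which copies methylation after replication, was 27.2 FPKM in CD5 high and 23.9 FPKM in CD5 low. Dnmt3a, the de novo enzyme, was 7.497 FPKM in CD5 high and 6.73 FPKM in CD5 low. The Tet enzymes oxidise methylcytosine, and Tet3 was the more abundant, with 26.1 FPKM in CD5 high and 30.9 FPKM in CD5 low, while Tet2 was 12.97 FPKM in CD5 high and 13.3 FPKM in CD5 low. Dnmt3b and Tet1 were not among the tested genes.

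**Figure D4:**
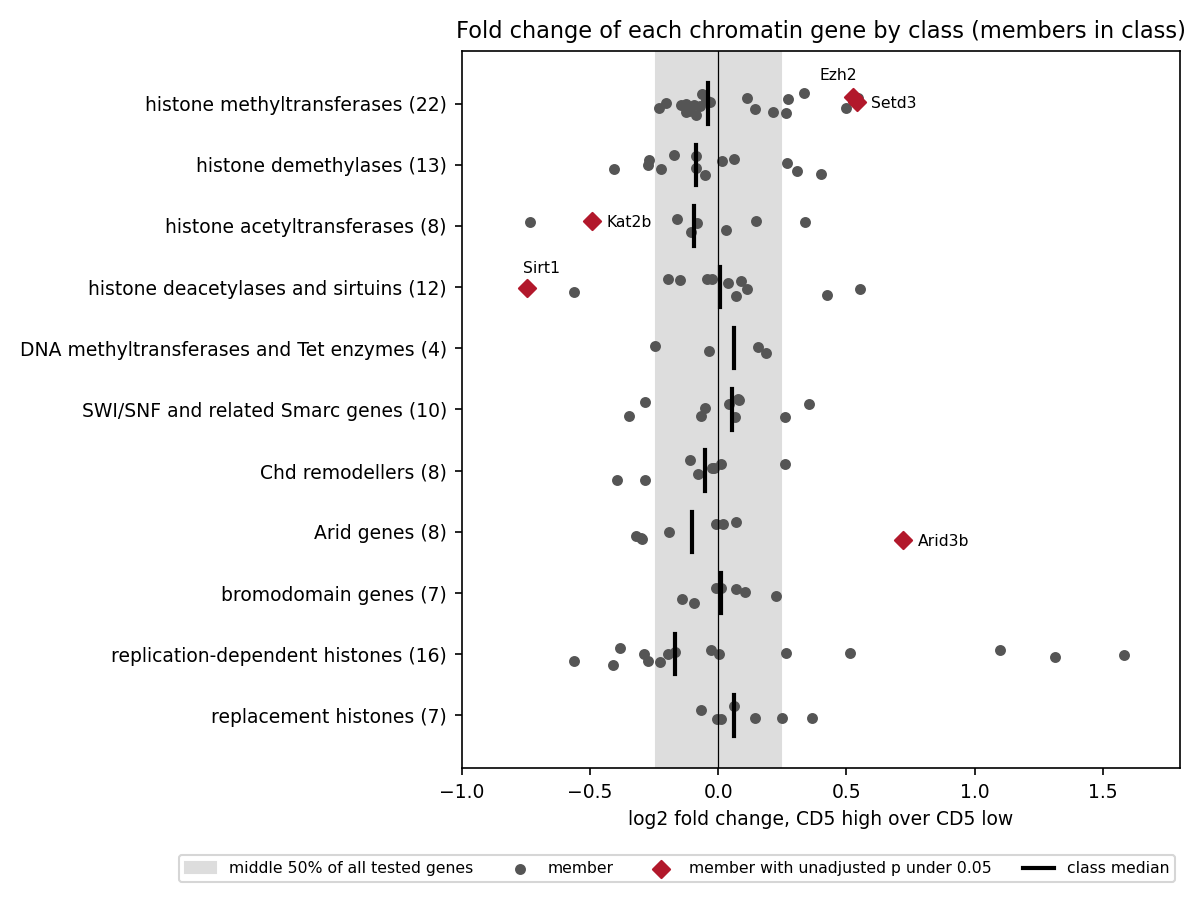
Log2 fold change, CD5 high over CD5 low, of each chromatin gene with a finite ratio, by class, with the number of genes tested in brackets; bars are class medians, red diamonds genes with an unadjusted p-value under 0.05, and the grey band the interquartile range of all tested genes (-0.24 to 0.24). Class medians lie between -0.17 and 0.06, and the replication-dependent histones reach farthest to the right; Hist1h1b, with no finite ratio, is not drawn.

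Remodeller genes were close to equal. Among 10 Smarc genes, 6 were higher and 4 lower in CD5 high, with a median log2 fold change of 0.06. The alternative motor subunits of the SWI/SNF complex had close values: Smarca4 was 27.2 FPKM in CD5 high and 25.9 FPKM in CD5 low, and Smarca2 was 35.4 FPKM in CD5 high and 37.02 FPKM in CD5 low. Among other subunit genes, Smarcb1 was 38.01 FPKM in CD5 high and 39.4 FPKM in CD5 low. Smarcc1 was 15.6 FPKM in CD5 high and 14.8 FPKM in CD5 low. Smarce1 was 30.95 FPKM in CD5 high and 29.3 FPKM in CD5 low. Smarcc2, at 22.2 FPKM in CD5 high and 28.2 FPKM in CD5 low, and Smarcad1, at 8.49 FPKM in CD5 high and 6.63 FPKM in CD5 low, marked the ends of the class at log2 fold changes of -0.35 and 0.36. Smarca5, the motor of the ISWI remodellers, was 29.4 FPKM in CD5 high and 28.5 FPKM in CD5 low. Smarcd2 was 26.8 FPKM in CD5 high and 22.3 FPKM in CD5 low, and Smarcd1 6.29 FPKM in CD5 high and 7.67 FPKM in CD5 low. No Smarc gene had a q-value under 0.627 in the authors' deposited table.

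Of the Chd genes, 2 of 8 were higher and 6 lower. Chd4, the motor of the NuRD complex, was 55.1 FPKM in CD5 high and 46.01 FPKM in CD5 low, and its paralog Chd3 was 77.8 FPKM in CD5 high and 77.1 FPKM in CD5 low. Chd6 had the lowest ratio, with 14.5 FPKM in CD5 high and 19.1 FPKM in CD5 low (log2 fold change -0.39, q = 0.495 in the authors' deposited table). Chd8 was 31.3 FPKM in CD5 high and 38.2 FPKM in CD5 low, Chd2 30.8 FPKM in CD5 high and 33.2 FPKM in CD5 low, Chd1 25.3 FPKM in CD5 high and 25.6 FPKM in CD5 low, Chd7 21.5 FPKM in CD5 high and 22.7 FPKM in CD5 low, and Chd1l 10.5 FPKM in CD5 high and 10.7 FPKM in CD5 low.

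The Arid genes share a DNA-binding domain, and 3 of 8 were higher in CD5 high. Arid3b was 10.8 FPKM in CD5 high and 6.52 FPKM in CD5 low (1.65-fold, p = 0.0361 and q = 0.440 in the authors' deposited table), the highest fold outside the histones. The SWI/SNF subunit genes Arid1a and Arid1b were both lower in CD5 high. Arid1a was 53.2 FPKM in CD5 high and 65.4 FPKM in CD5 low (log2 fold change -0.30, q = 0.607 in the authors' deposited table), and Arid1b was 13.1 FPKM in CD5 high and 16.2 FPKM in CD5 low (-0.30, q = 0.644 there). Arid2, of the related PBAF complex, was 10.5 FPKM in CD5 high and 10.6 FPKM in CD5 low. Arid4a was 46.2 FPKM in CD5 high and 57.6 FPKM in CD5 low and Arid4b 43.5 FPKM in CD5 high and 49.7 FPKM in CD5 low, while Arid5b was 36.1 FPKM in CD5 high and 34.4 FPKM in CD5 low and Arid5a 12.3 FPKM in CD5 high and 12.1 FPKM in CD5 low.

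Bromodomain proteins bind acetylated lysines. Brd2, which binds acetylated histone H4, was 75.3 FPKM in CD5 high and 82.99 FPKM in CD5 low. Brd3 was 15.6 FPKM in CD5 high and 14.5 FPKM in CD5 low. Brd9, a subunit of a SWI/SNF complex, had the highest ratio of the 7 genes, with 26.2 FPKM in CD5 high and 22.4 FPKM in CD5 low (log2 fold change 0.23, q = 0.827 in the authors' deposited table). Brd8 was 24.2 FPKM in CD5 high and 23.1 FPKM in CD5 low, Brd1 21.3 FPKM in CD5 high and 21.1 FPKM in CD5 low, and Brd7 14.98 FPKM in CD5 high and 15.998 FPKM in CD5 low.

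Other genes of the same pathways also had few genes past the test. Of 220 further genes in 5 lists of enzymes, complex subunits, remodeller subunits, readers and architectural proteins, and histone chaperones, 181 were tested, 78 higher and 103 lower in CD5 high, with a median log2 fold change of -0.05. Of these 1 rose and 1 fell (1.10%, against 0.758% of all tested genes). In the authors' deposited table, 8.84% had an unadjusted p-value under 0.05, against 5.22% of the chromatin genes and 10.3% of all tested genes. A difference of at least 1.5-fold was seen in 9.94%, against 5.26% of the chromatin genes and 14.8% of all tested genes. Hmgb2, a DNA-bending protein gene, rose to 93.7 FPKM in CD5 high, against 56.4 FPKM in CD5 low (q = 0.0462 in the authors' deposited table). Satb1, a chromatin organizer, fell to 44.96 FPKM in CD5 high, against 83.2 FPKM in CD5 low (q = 0.0110 in the authors' deposited table). Chosen after its value was seen, H1f0, the replacement linker histone, was 14.2 FPKM in CD5 high and 5.70 FPKM in CD5 low (p = 0.00615 and q = 0.215 in the authors' deposited table).

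By list, none of 28 other methylation enzymes, 61 subunits of writer and eraser complexes, 39 other remodeller subunits and 22 chaperones and further histones passed the test, and the 2 changed genes belong to the 31 readers and architectural genes. At an unadjusted p-value under 0.05 the lists held 5 (17.9%), 3 (4.92%), 2 (5.13%), 2 (9.09%) and, for the readers, 4 genes (12.9%) in the authors' deposited table, shares on both sides of the 10.3% of all tested genes. The subunit list had 19 higher and 42 lower genes and a median log2 fold change of -0.13.

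As a check of the groups, Cd5 was 206 FPKM in CD5 high and 45.4 FPKM in CD5 low, in the direction of the sort. Of 13 T cell genes listed 10 were tested, none passed the test, and their sum was 4287 FPKM in CD5 high and 4050 FPKM in CD5 low. Of 12 regulatory T cell genes listed, 7 were tested, each with the higher value in CD5 high. Their sums were 789 FPKM in CD5 high and 393 FPKM in CD5 low. Of the 7, 4 rose (57.1%, against 0.538% of all tested genes): Ctla4, Ikzf2, Tnfrsf4 and Tnfrsf18. Foxp3 did not pass the test, at 12.3 FPKM in CD5 high and 1.10 FPKM in CD5 low (q = 0.298 in the authors' deposited table). Its CD5 low value was under the floor, so it was tested through CD5 high only. Of 18 antigen-presenting cell genes 8 were tested and 5 fell (62.5%, against 0.221% of all tested genes). The 8 genes summed to 634 FPKM in CD5 high and 1234 FPKM in CD5 low. Fcer1g, which fell, was listed at 0 in CD5 high. Fcer1g and Apoe were under the floor in CD5 high and were tested through CD5 low only, which tilts the count toward CD5 low. Islet endocrine genes (6 tested of 15 listed) had values in both directions, 3 higher and 3 lower in CD5 high. Of the 6, 1 rose (16.7%, against 0.538% of all tested genes). This was Ins1, with 368 FPKM in CD5 high and 4.003 FPKM in CD5 low. Ins1 was under the floor in CD5 low and was tested through CD5 high only. The 6 genes summed to 2807 FPKM in CD5 high and 339 FPKM in CD5 low. These sums rest mostly on Ins2 in CD5 high (2395 FPKM in CD5 high and 26.7 FPKM in CD5 low) and on Sst in CD5 low (6.86 FPKM in CD5 high and 263 FPKM in CD5 low). Exocrine genes (21 tested of 25 listed) were higher in CD5 high in 4 and lower in 17, with a median log2 fold change of -0.34. Of the 21, 1 fell (4.76%, against 0.221% of all tested genes). This was Cel, with 12.7 FPKM in CD5 high and 34.6 FPKM in CD5 low (q = 0.0186 in the authors' deposited table). The 21 genes summed to 2026 FPKM in CD5 high and 2191 FPKM in CD5 low. The B cell gene tested, Cd79b, was 14.0 FPKM in CD5 high and 10.96 FPKM in CD5 low. What these other cells add to the chromatin gene values was not tested.

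Exons of 42 of the 115 genes overlap a gene on the other strand in GENCODE M21. Ezh2, Eed, Suz12, Sirt1, Arid3b, Kat8, Setd4 and Hist2h2ab are among them. The library kit does not mark strand, so reads of such pairs cannot be told apart. Hist1h1b, Setd3 and Kat2b have no such overlap.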

How the data were processed

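RNA of 2 CD5 high and 2 CD5 low libraries was sequenced. Per the labels' protocols, lysis used Triton X-100, cDNA was amplified after reverse transcription, and Nextera XT made the libraries. Per the submitters' processing notes, TopHat 1.0.0 and Cufflinks were used with build mm10; how libraries were scaled and combined, and the annotation, are not known from the sources used here.

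The authors deposited 1 FPKM value per group for each gene, in a table whose headers are those of a Cuffdiff test. The same deposited table gives a log2 fold change (equal to the log2 ratio of the FPKM values within 5.1e-05), a test statistic score that was not used, and a p-value and q-value of the authors' test. It holds 7404 rows, 152 of them untested; 1 further line is not analysed here. The labels do not say that libraries came from separate animals, so the p-values may measure technical spread.

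Genes were taken by symbol pattern among tested rows naming 1 gene. Classes, gene lists and the rule for named genes (q or unadjusted p under 0.05, the 3 most abundant and the 2 extreme genes of each class, fixed paralog sets) were chosen with earlier results of these data known; nearly all other members are given by value, and 1 is not reported here. The table gave group values only, so the authors' test is described and no model was fitted. Counts and medians were computed with Python 3.11.15 and pandas 2.3.3 and checked on simulated data. Antisense overlap came from GENCODE M21 and promoters from RefSeq, both GRCm38. Alternatives were other thresholds, a minimum mean of 20 FPKM, a pseudocount of 1 FPKM, median centring, quantile normalization and, added after seeing the data, exclusions of genes.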

Additional observations from a re-analysis of the deposited data

How the results depend on the processing

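The titles of the CD5 high and CD5 low libraries share the numbers 3 and 4 (Isl3 and Isl4). Whether equal numbers mark a pair, and whether the authors' test used it, is not known from the sources used here. No paired analysis was possible because single libraries have no values of their own in the table. The fits that leave out a library were not run for the same reason. The count of chromatin genes past the test, 1, was also 1 at a q-value under 0.1 and with rows naming several genes kept. It was 6 at an unadjusted p-value under 0.05, 0 with a mean of at least 20 FPKM required, and 0 without the replication-dependent histones, since both leave out Hist1h1b. Of 63 alternative medians over all chromatin genes or a class, 60 moved by less than 0.1 (log2), 4 of these across 0. With a mean of at least 20 FPKM required, the median of the Arid genes was -0.24 instead of -0.10, that of the methyltransferases 0.11 instead of -0.04, and that of the replication-dependent histones 0.12 instead of -0.17; fewer genes enter there. No class median is therefore read as a direction. Depth is unknown, so no interval can be set on any value.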
